A study of Mus musculus with 4 samples.

Results

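The immediate early genes described here are 10 of the 32285 genes in the count tables: Fos, Fosb, Jun, Junb, Jund, Egr1, Ier2, Ier3, Klf6 and Zfp36. They were chosen by name, as genes that gauge dissociation stress and signalling, and are described here by cell type, library and genotype. The measurements are droplet single-cell RNA counts from epithelial cells of the mouse small intestine, at 25 weeks of age. Villi and crypts were shaken off the tissue after cold EDTA and digested with the enzyme TrypLE. The cells were then sorted after staining with antibodies to CD326 (an epithelial marker), CD45, CD31 and TER-119. Groups are wild type (n = 2 libraries) and the TrnA point mutant G5081A, a change in the mitochondrial gene for alanine tRNA (n = 2), with a labelled load of mutated mitochondrial DNA of 77% in mutant 1 and 81% in mutant 2. The mutated tRNA is not among the genes counted, so the counts do not check the genotype labels. Set A pairs the libraries whose titles state no sex (wild type 1, mutant 1), and set B those titled male (wild type 2, mutant 2). The file headers name Cell Ranger 7.0.0 for set A and 7.1.0 for set B. Each library is treated as 1 sample, and the labels do not say how many animals a library holds, so p-values measure the spread between these libraries.

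Immediate early genes are transcribed within minutes of a stimulus, without new protein synthesis. Growth factor signals through the MAP kinase cascade reach them by way of the serum response factor (SRF) with ETS cofactors and by way of CREB, and stress kinases reach Jun and its relatives. Fos and Jun family proteins pair into the AP-1 transcription factor, Egr1 and Klf6 are zinc finger transcription factors, and Zfp36 binds AU-rich mRNAs and hastens their decay. In dissociated tissue the same genes are known to be induced by warm enzymatic digestion, so their level in single-cell data is read both as signalling in the tissue and as handling after it.

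The 250 bases before the start site are printed for Fos, Fosb, Jun and Klf6, since Jun, Fos and Klf6 had the largest fitted rises along the villus and Fosb the largest fitted excess of goblet cells over crypt cells. The sequences are RefSeq's on GRCm38.p6, read 5′ to 3′ on the gene's strand, and capitals mark matches to TGACNTCA or TGACG on either strand.
Fos (chr12:85473640-85473889, plus strand): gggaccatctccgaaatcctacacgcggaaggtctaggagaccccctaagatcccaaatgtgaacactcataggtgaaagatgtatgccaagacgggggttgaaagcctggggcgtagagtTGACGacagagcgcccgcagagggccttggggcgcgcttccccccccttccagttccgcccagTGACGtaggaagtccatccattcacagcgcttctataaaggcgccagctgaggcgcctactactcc
Fosb (chr7:19310046-19310295, minus strand): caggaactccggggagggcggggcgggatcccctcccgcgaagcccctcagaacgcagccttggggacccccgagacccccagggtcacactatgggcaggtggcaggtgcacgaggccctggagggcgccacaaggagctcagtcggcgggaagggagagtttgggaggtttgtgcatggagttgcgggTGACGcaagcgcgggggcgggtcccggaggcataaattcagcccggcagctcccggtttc
Jun (chr4:95052223-95052472, minus strand): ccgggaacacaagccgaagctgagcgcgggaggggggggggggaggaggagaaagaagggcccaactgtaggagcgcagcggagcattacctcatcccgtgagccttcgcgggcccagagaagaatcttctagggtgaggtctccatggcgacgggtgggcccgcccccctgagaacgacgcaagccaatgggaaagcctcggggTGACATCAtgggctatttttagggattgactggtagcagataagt
Klf6 (chr13:5861239-5861488, plus strand): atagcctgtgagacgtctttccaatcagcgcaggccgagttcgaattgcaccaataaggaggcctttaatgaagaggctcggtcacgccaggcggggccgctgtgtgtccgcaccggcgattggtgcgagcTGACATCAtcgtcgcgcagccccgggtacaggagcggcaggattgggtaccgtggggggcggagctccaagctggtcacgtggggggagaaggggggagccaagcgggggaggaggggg

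Promoters of 8 of the 10 members were in the table, all but Egr1 and Ier2. Each window ends at the start that RefSeq gives, which is the GENCODE start for Fos and Jun only. The Fosb, Junb, Ier3 and Klf6 windows end near the GENCODE start but not at it, and those of Jund and Zfp36 lie further off. The Jund window (chr8:70697489-70697738) lies upstream of the gene as GENCODE places it, and the Zfp36 window (chr7:28379229-28379478) lies inside it. None of the 8 windows held the full CREB site TGACGTCA, which was in 1.55% of all 32851 promoters, or the AP-1 site TGACTCA, which was in 4.46%. A CArG box, the SRF motif, was in 1 of the 8, at bases -58 to -49 of Zfp36, and in 1.47% of all promoters. The Sp motif GGGCGG was in 6 of the 8 and in 32.7% of all, and the Egr motif GCGNGGGCG was in 2 of the 8, Fosb and Zfp36, and in 4.70% of all. The form TGACNTCA was in Jun (-45 to -38) and Klf6 (-119 to -112) and in 7.49% of all promoters. The shorter TGACG was in Fos (-129 to -125 and -66 to -62), Fosb (-60 to -56) and Junb (-106 to -102), and in 17.8% of all. TGACNTCA and TGACG were added after the sequences had been read. TGACGTCA is a case of both of them, and all motifs were searched on both strands. These matches describe letters in a window and are not measured binding.

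The annotation places the members on 7 chromosomes as protein-coding genes (GENCODE vM21, build mm10). Fos lies on chromosome 12 (85473890 to 85477273, plus strand), Jun on chromosome 4 (95049034 to 95052222, minus strand) and Klf6 on chromosome 13 (5861482 to 5870394, plus strand). Fosb (19302696 to 19310051, minus strand) and Zfp36 (28376784 to 28380253, minus strand) share chromosome 7. Junb (84974484 to 84978718, minus strand), Jund (70698949 to 70700616, plus strand) and Ier2 (84661331 to 84662852, minus strand) share chromosome 8. Ier3 lies on chromosome 17 (35821684 to 35822923, plus strand) and Egr1 on chromosome 18 (34859823 to 34864984, plus strand). All 10 identifiers in the files matched the annotation, as with ENSMUSG00000021250 for Fos and ENSMUSG00000038418 for Egr1.

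Cells were grouped into classes by clustering that left out the 10 members and 41 other immediate early and dissociation genes, so no class was built on them. Of 29270 cells kept, 8862 lay in clusters that stayed unnamed and 148 in a cluster with T cell or intraepithelial lymphocyte markers, which was set aside. All markers of each class were higher in it than in the other cells for stem-like, cycling-like, enterocyte, Paneth, tuft and enteroendocrine cells, and 11 of 12 for goblet cells. The clusters had been named from these same markers, so this is no independent check of the names. UMIs (unique molecular identifiers, each a counted mRNA molecule) in all epithelial cells summed to 86093472, 99569296, 89086725 and 91830629 in, by library, wild type 1, mutant 1 (set A), wild type 2 and, last, mutant 2 (set B). Every run of 4 values that follows keeps this order. Mutant 1 stood apart in the crypt: 1485 of the 1540 cells of 1 stem-like cluster and 1685 of the 1752 cells of 1 cycling-like cluster were its own, while the other 3 libraries lay mainly in another stem-like cluster of 2832 cells and another cycling-like cluster of 1824. Epcam, which encodes CD326, had 235814, 335561, 205003 and 228120 UMIs in these cells, and Ptprc, which encodes CD45, had 31, 23, 144 and 149. A Paneth cluster of 38 cells came wholly from wild type 1. Levels are CPM, the UMIs of a gene per 1000000 UMIs summed over the class in that library, and in pooled cells fewer expressing cells and less RNA per cell cannot be told apart.

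Among the Fos proteins, the AP-1 partners that cannot pair with themselves, Fos stood far above its crypt level in both enterocytes and goblet cells. Its level was 437, 304, 266 and 215 CPM in enterocytes and 456, 421, 149.9 and 128 CPM in goblet cells. In crypt cells, the stem-like and cycling-like cells together, it was 45.7, 37.7, 14.2 and 19.3 CPM. Every enterocyte and goblet value lay above every crypt value, and the ratio of means was 10.4 for enterocytes and 9.88 for goblet cells. Between enterocytes and goblet cells the order was not fixed, with enterocytes higher in 2 of 4 libraries. Enteroendocrine cells, the hormone-secreting cells, came next at 239, 194, 73.4 and 80.9 CPM.

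Fosb, the relative of Fos whose protein can take its place in AP-1, was highest in goblet cells at 187, 167, 60.2 and 41.4 CPM. Enteroendocrine cells had 129, 140.4, 37.0 and 26.7 CPM and enterocytes 87.9, 45.7, 11.9 and 19.7 CPM. In crypt cells it was 15.2, 9.33, 2.68 and 2.11 CPM. Goblet cells were above enteroendocrine cells, and these above enterocytes, in 4 of 4 libraries each, although the ranges of neighbouring classes overlapped, with both libraries of set A above both of set B in all 3 classes.

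Jun, the AP-1 subunit that can also pair with itself, was highest in enterocytes at 354, 173, 163 and 165 CPM, against 114, 61.5, 58.5 and 69.6 CPM in crypt cells. Stem-like cells held more of it than cycling-like cells, with means of 114 and 51.0 CPM. Junb, a Jun relative often described as a brake on Jun, was also highest in enterocytes at 255, 220.4, 133 and 139 CPM, with 36.4, 35.8, 13.9 and 21.2 CPM in crypt cells. Jund, the Jun relative that resting cells make steadily, was 371, 417, 270.2 and 377 CPM in crypt cells, 401, 453, 231 and 328 CPM in enterocytes and 641, 662, 461 and 582 CPM in goblet cells. Goblet cells led for Jund in 4 of 4 libraries, while enterocytes were above crypt cells in 2 of 4.

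Egr1 had another order, with enteroendocrine cells first at 262, 214, 149 and 109 CPM and goblet cells second at 164, 157, 67.8 and 57.1 CPM. Enterocytes held 30.1, 35.5, 36.3 and 13.3 CPM and crypt cells 20.3, 16.6, 7.27 and 9.38 CPM. Enteroendocrine cells exceeded goblet cells in 4 of 4 libraries, and goblet cells exceeded tuft cells in 4 of 4. Ier2, a small nuclear protein of the early response, was the only member lower in enterocytes than in crypt cells in all 4 libraries. It was 79.5, 83.9, 40.6 and 39.3 CPM in enterocytes, 146, 151, 70.5 and 92.7 CPM in crypt cells and 306, 346, 129 and 148 CPM in goblet cells.

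Klf6 was highest in enterocytes at 250.1, 199, 239 and 197 CPM, with 105, 81.3, 69.9 and 54.7 CPM in goblet cells and 41.6, 45.2, 25.4 and 34.6 CPM in crypt cells. Zfp36 had 179.7, 212, 134 and 114 CPM in enterocytes, 71.2, 78.4, 27.5 and 32.7 CPM in goblet cells and 22.2, 28.1, 9.95 and 14.1 CPM in crypt cells. For both genes the lowest enterocyte library lay above the highest library of every other class ranked. The unnamed clusters, ranked there as 1 class, held a cluster of 1082 cells with Fabp6, Apoa1 and Anpep among its leading genes. Klf6 was 362, 475, 601 and 379 CPM in it, Zfp36 165, 314, 232 and 146 CPM and Jun 449.7, 454, 415 and 273 CPM. Fos was 129, 271, 178 and 78.9 CPM there, below enterocytes in every library. This cluster was singled out after its values had been seen. Ier3, an early gene linked to cell survival, was near the lower end of what these sums can measure, at 6.60, 6.95, 7.34 and 5.01 CPM in enterocytes and 4.53, 4.34, 3.59 and 4.36 CPM in crypt cells.

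**Figure D1:**
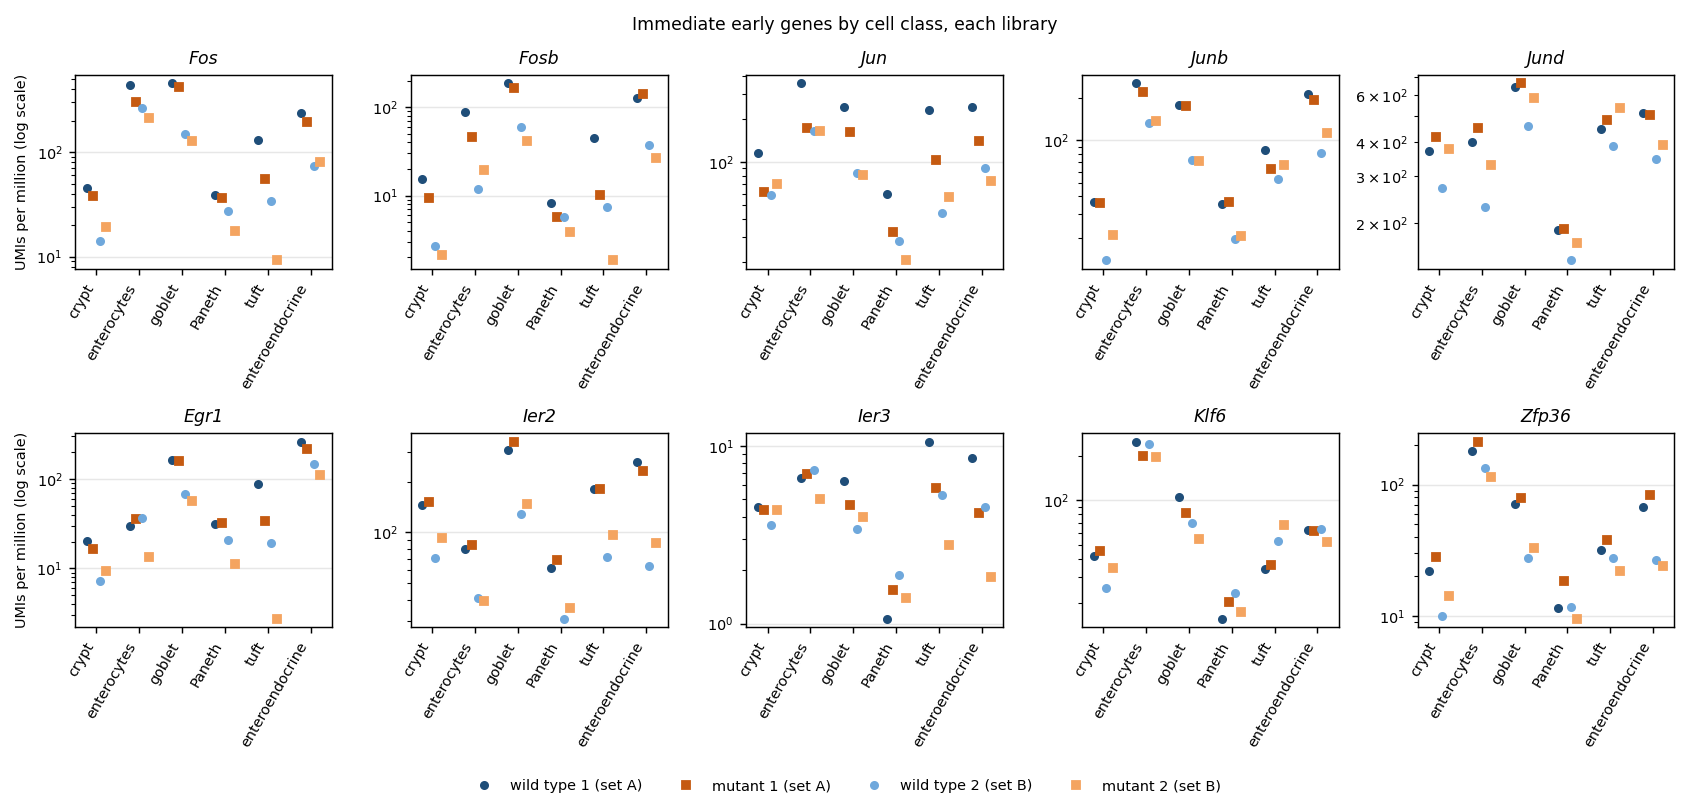
Levels of the 10 members by cell class, as CPM on a log axis. Each point is 1 library (circles wild type, squares mutant, dark set A, light set B). Fos, Junb, Klf6 and Zfp36 stand higher in enterocytes than in crypt cells in every library, and Egr1 is highest in enteroendocrine cells. In goblet cells all 10 members are higher in both set A libraries than in both set B libraries. The same holds for 33.0% of 12179 genes with a mean of at least 1 CPM there.

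The classes were then compared with crypt cells in a fit with the library as a block (edgeR quasi-likelihood test, TMM normalization, Benjamini-Hochberg adjustment, called at an adjusted p under 0.05). Differences are log2 ratios on the TMM scale, which sets each class's level against a trimmed mean of all genes. Classes differ in most genes, so the background is high: 37.9% of 14417 genes tested were called higher in enterocytes than in crypt cells, 40.8% lower. In enterocytes 9 of 10 members rose, with a median log2 difference of 2.50 over the members and -0.10 over all genes. Fos rose by 4.02 ± 0.25 (SE, adjusted p = 3.11e-14), Zfp36 by 3.69 ± 0.18 (SE, adjusted p = 2.59e-16) and Junb by 3.35 ± 0.15 (SE, adjusted p = 6.34e-17). Klf6 rose by 3.11, Fosb by 3.03, Jun by 1.97, Egr1 by 1.70 and Ier3 by 1.15. Jund rose by 0.46 (adjusted p = 8.82e-04) on this scale, but without the TMM factor its difference was -0.04 (adjusted p = 0.749). Ier2 was the member that fell, at -0.43 (adjusted p = 0.00828). Its call was lost without mutant 2, at -0.33 (edgeR adjusted p = 0.0685), and at clustering resolution 0.5, at -0.26 (edgeR adjusted p = 0.161). The crypt cells differ at that resolution. A cluster of 4208 cells, 4070 of them from mutant 1, stayed unnamed, and mutant 1 gave 86 stem-like and 8 cycling-like cells.

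In goblet cells 9 of 10 members rose, against 31.8% of genes called higher, with a median log2 difference of 1.49 over the members. Fosb rose by 4.28 ± 0.25 (SE, adjusted p = 3.01e-14), Fos by 3.45 ± 0.24 (SE, adjusted p = 1.17e-12) and Egr1 by 3.23 ± 0.23 (SE, adjusted p = 2.32e-12). Ier3 did not pass the test, at 0.34 (adjusted p = 0.121). In enteroendocrine cells 7 of 10 rose, against 35.1% called higher, led by Egr1 at 3.54 ± 0.24 (SE, adjusted p = 8.95e-13) and Fosb at 3.36 ± 0.26 (SE, adjusted p = 1.36e-11). Of those 7, Jun was not called without wild type 1 (0.38) or without mutant 1 (0.40), and Klf6 not without wild type 1 (0.49) or wild type 2 (0.31), all as log2 differences. In tuft cells, the chemosensory cells, 2 of 10 rose, Junb at 1.20 ± 0.18 (SE, adjusted p = 4.64e-06) and Egr1 at 0.93 ± 0.36 (SE, adjusted p = 0.0393), against 19.0% called higher. At clustering resolution 0.5 the number of tuft cells was the same, but the crypt cells they were compared with were not, as given above. There 7 of 10 rose, against 20.7% called higher, and Fos at 1.18, Fosb at 1.76, Jund at 0.46, Klf6 at 0.62 and Zfp36 at 0.75 were also called. With DESeq2 4 members rose, against 3541 of 14417 genes called higher, and without the TMM factor 5, against 3655. With no filter on low counts 4 members were called, and the share of all genes is not given. Egr1 was 0.39 (edgeR adjusted p = 0.5002) without wild type 1 and 0.99 (edgeR adjusted p = 0.104) without mutant 1.

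Paneth cells, the defensin-secreting cells at the crypt base, depended on the scaling. On the TMM scale 9 of 10 members rose, against 27.4% of genes called higher, with Egr1 at 2.69 (adjusted p = 5.47e-10). Without the TMM factor 1 member rose and 6 fell, against 5.34% of genes called higher and 83.1% lower, with Jun at -1.20 and Jund at -1.04, and the median of all genes moved to -1.93. In CPM, Fos was 38.7, 36.7, 27.6 and 17.8 CPM in Paneth cells, overlapping the crypt values. The Egr1 level was 31.5, 32.5, 20.7 and 11.3 CPM and exceeded the crypt level in 4 of 4 libraries. Without the TMM factor the median of all genes moved to -0.61 in enterocytes, -0.27 in goblet cells, 0.10 in tuft cells and 0.26 in enteroendocrine cells, and called members kept their direction in those 4 classes except Jund in enterocytes.

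Depth and mitochondrial RNA moved with class. The median cell held 3341, 2154, 2729 and 3101 UMIs in enterocytes, 20743, 7827, 11278 and 11329.5 in goblet cells and 26106, 11472, 14700.0 and 13594 in crypt cells. Mitochondrial genes made up a median of 13.3, 10.7, 18.8 and 17.9% of UMIs in enterocytes and 4.43, 5.13, 3.94 and 3.66% in crypt cells. Cells with at least 5000 UMIs were then thinned to 5000. This kept 135, 244, 407 and 483 of 602, 830, 2147 and 1961 enterocytes. Of 944, 3495, 2085 and 1901 crypt cells it kept 877, 2910, 1994 and 1775. After thinning, mean Fos UMIs per cell were 2.44, 1.25, 1.07 and 0.942 in enterocytes. The thinned crypt means were 0.213, 0.172, 0.0692 and 0.0873. Among these deeper cells, a minority of enterocytes, the Fos difference was thus present at equal depth in every library. Markers of lymphocytes were scarce in enterocytes, with 13 listed genes summing to 19.8, 11.7, 6.67 and 9.79 CPM and 6 of the 13 found in all 4 libraries. Goblet markers, 12 genes, summed to 6769.7, 5774, 2253 and 1894 CPM in enterocytes and 135520.0, 119770.0, 153410.0 and 129980.0 CPM in goblet cells, so goblet RNA in enterocytes was higher in both libraries of set A. Its part in the enterocyte levels was not tested.

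Some classes held clusters with different levels. Goblet cells formed a shallower and a deeper cluster, and Klf6 was 302, 232, 209 and 178 CPM in the shallower against 64.5, 53.6, 42.3 and 35.2 CPM in the deeper. Fos followed at 682, 639, 275 and 305 against 409.8, 381, 125 and 100.0 CPM, and Fosb at 335, 292, 91.2 and 97.2 against 157, 144, 54.1 and 32.6 CPM. In every library the shallower goblet cluster was higher for these 3 genes, whereas Ier2 was lower there in both set A libraries. Among the 4 enterocyte clusters, a cluster of 683 cells stood out for Jun at 789 ± 223 CPM (SD, n = 4) and for Klf6 at 980.0, 858, 777 and 715 CPM. The largest enterocyte cluster had 448, 389.9, 212 and 191 CPM of Jun and 185, 229, 257 and 188 CPM of Klf6. Among the crypt cells, a cycling-like cluster of 477 cells, whose leading genes include the goblet genes Agr2 and Tff3 and the secretory factor Atoh1, had Fos at 218, 180.1, 35.2 and 59.6 CPM, against 37.1, 23.0, 11.3 and 14.9 CPM in stem-like cells. Its cells numbered 54, 220, 122 and 81 by library and gave 476, 691, 92 and 86 of the 1169, 1554, 468 and 531 Fos UMIs of crypt cells. These clusters were singled out after their values had been seen and carry no test.

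Position along the villus was then read from the cells themselves. Enterocytes were ranked within each library by genes of the villus tip minus genes of the villus bottom and divided into 5 equal parts. Jun rose at every step in 4 of 4 libraries. Its level was 115, 35.7, 47.1 and 30.3 CPM in the bottom part, 335, 199.9, 158 and 127 CPM in the middle part and 983, 734, 500.2 and 629 CPM in the top part. The lowest top value exceeded the highest bottom value, and the ratio of means was 12.5.

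The other members differed in the shape of their rise. Klf6 was 153, 120.4, 132 and 129.9 CPM in the bottom part, 196, 291, 301 and 227 CPM in part 4 and 694, 591, 641 and 479 CPM in the top, so most of its rise fell in the last step. Fos rose at every step in 3 of 4 libraries, from 248, 163, 110.4 and 82.6 CPM at the bottom through 441, 351, 306 and 224 CPM in the middle to 836, 606, 530.3 and 571 CPM at the top. Zfp36 went from 113, 144, 87.8 and 82.0 to 349, 434, 285 and 256 CPM. Junb went from 179.8, 151, 106 and 113 to 403, 381, 225 and 238 CPM, rising at every step in 4 of 4 libraries. Egr1 went from 23.1, 21.4, 20.3 and 6.06 to 57.8, 72.4, 105 and 46.1 CPM. Jund, at 426, 492, 277 and 387 CPM in the bottom part and 580.3, 533, 224 and 389 CPM in the top part, fell and rose again, with its lowest level in part 3 or part 4 in all 4 libraries.

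**Figure D2:**
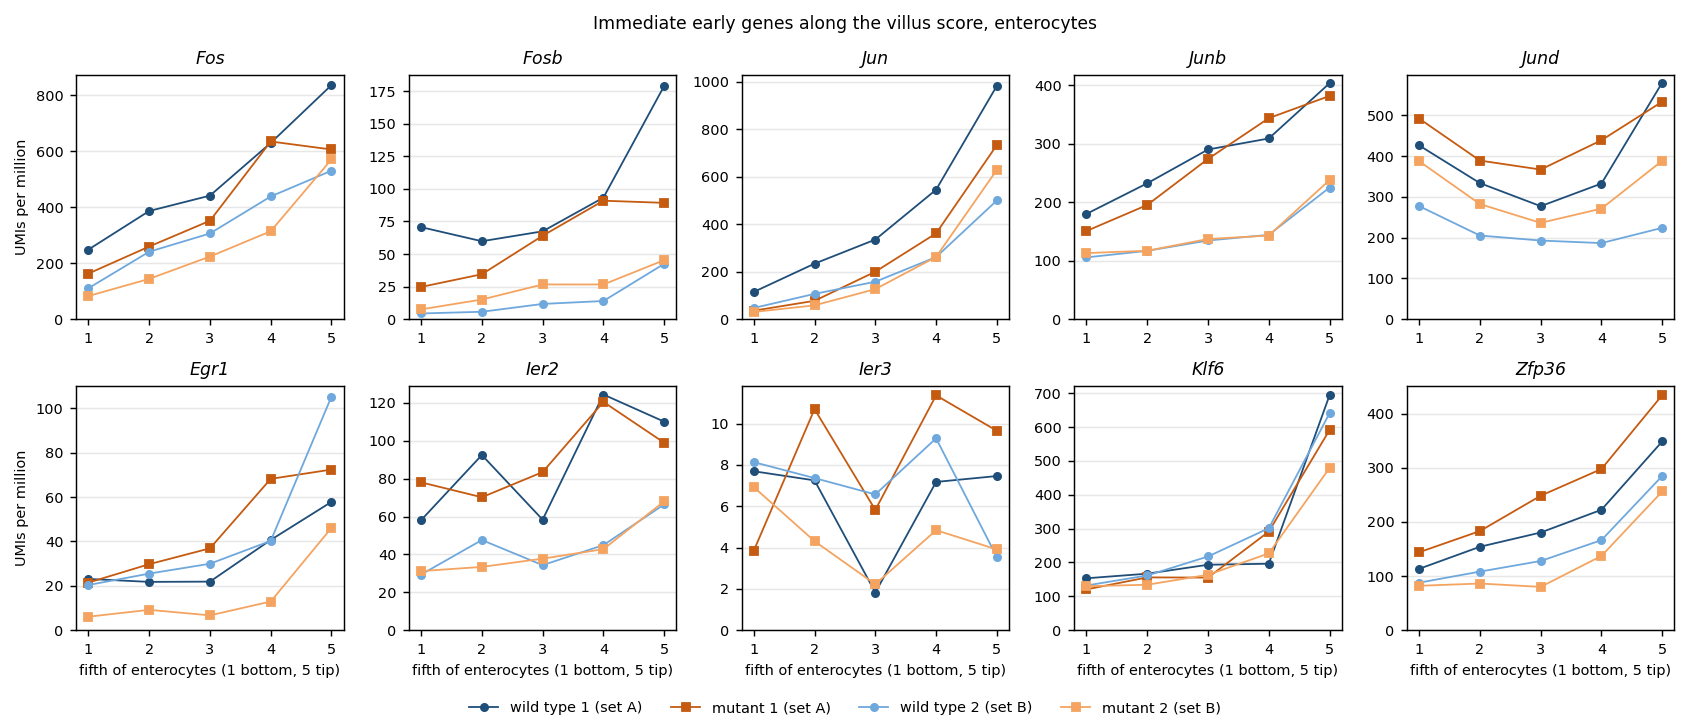
Levels of the 10 members in enterocytes ranked by the villus score, from the bottom part (1) to the tip part (5), in CPM on linear axes from 0. Each line is 1 library. Jun climbs at every step in all 4 libraries, Klf6 turns up mainly at the last step, and Jund dips in the middle.

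In the fit of top against bottom part, with the library as a block, 8 of 10 members rose and 0 fell, against 31.2% of 7819 genes called higher and 32.9% lower. The members' median log2 difference was 2.11, against -0.05 over all genes tested. Jun rose by 4.03 ± 0.20 (SE, adjusted p = 5.85e-10), Fos by 2.43 ± 0.18 (SE, adjusted p = 2.11e-08), Klf6 by 2.41 ± 0.14 (SE, adjusted p = 1.95e-09) and Egr1 by 2.39 ± 0.22 (SE, adjusted p = 2.47e-07). Fosb rose by 2.33, Zfp36 by 1.89, Junb by 1.42 and Ier2 by 1.16. Jund did not pass, at 0.31 (adjusted p = 0.0835), except without wild type 2, where it was 0.44 (edgeR adjusted p = 0.0131). Ier3 did not pass either, at -0.16 (adjusted p = 0.755). Without the TMM factor the median of all genes moved to -0.31 and 8 members rose, against 23.1% called higher.

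Depth and mitochondrial share moved along the axis as well. The median cell held 4695, 10189, 4882 and 6283 UMIs in the bottom part and 3093, 1790.5, 2254 and 2477 in the top part, and the mitochondrial median was 15.5, 8.52, 11.3 and 10.5% and 10.97, 12.2, 17.8 and 16.1%. The mitochondrial share was highest in parts 2 to 4 in 3 of 4 libraries, while Jun, Junb, Klf6, Zfp36 and Egr1 were highest in the top part in 4 of 4 libraries. The part of depth in the rise was not tested.

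Other genes of the pathway were read along the villus in lists chosen with earlier results of these data known. Beside the list counts that follow, 31.2% of all genes tested rose and 32.9% fell. Of 26 receptor and MAP kinase genes tested, 15 rose and 3 fell. Map2k2, the MAP kinase kinase MEK2, rose by 0.36 and Erbb3, a neuregulin receptor, by 1.22 on the log2 scale. Egfr, the EGF receptor, chosen after its value was seen, was 21.7, 15.9, 34.0 and 31.2 CPM in the bottom part and 438, 514, 675 and 428 CPM in the top part, and rose by 4.55 ± 0.18 (SE, adjusted p = 4.03e-11). Of 4 EGF family ligands tested, 2 rose and 1 fell, with Hbegf, a membrane-anchored ligand of that receptor, at 3.78 ± 0.17 (SE, adjusted p = 1.47e-10). Hbegf in enterocytes was 149.6, 51.9, 90.6 and 75.3 CPM, against 13.3, 7.49, 6.94 and 8.47 CPM in crypt cells.

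Against the same shares of all genes, 31.2% higher and 32.9% lower, 6 of 10 SRF, ETS and CREB factors tested rose and 1 fell along the axis, with Ets2 at 1.28 and Creb1 at 0.89, while Mrtfb, an SRF cofactor, fell at -0.58. Of 11 MAP kinase feedback genes, which dampen the cascade, 9 rose and 1 fell. Spred2 was at 1.35, Dusp16 at 0.66 and Phlda1 at 1.25, while Lrig1, a receptor inhibitor of crypt cells, fell at -1.08. Of 13 AP-1 partners, 6 rose and 3 fell, with Maf at -1.17 and Nfe2l2 at -0.74 among the latter. Nab2, a repressor that binds Egr proteins, fell at -3.50. Of 29 other immediate early and dissociation genes, 22 rose and 3 fell, with Klf4, a zinc finger factor of differentiated epithelium, at 2.56 and Btg1 at 0.97.

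Heat shock genes, which encode protein-folding chaperones, include others known to respond to dissociation. Those named here have the highest mean CPM of their list, and those that rose are not named. Hsp90ab1 was 2807, 3011, 4073 and 3648 CPM in crypt cells and 343, 727, 388 and 382 CPM in enterocytes. Of 8 heat shock genes tested along the axis 1 rose and 7 fell, against 31.2% and 32.9% of all genes, with Hsp90ab1 at -1.04 and Hspa8 at -1.02. In enterocytes against crypt cells 4 of 11 rose and 6 fell, near the 37.9% and 40.8% of all genes, with Hspd1 at -3.13 and Hspe1 at -2.79, and 25 of 38 other immediate early and dissociation genes rose and 7 fell. In goblet cells, where 31.8% of all genes rose and 34.6% fell, 1 of 11 heat shock genes rose and 7 fell. Of the 38 other immediate early and dissociation genes 26 rose and 7 fell there.

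The mitochondrial share of a cell's UMIs, often read as a sign of damage, was set against the members' levels per 1000000 nuclear-encoded UMIs. Over all barcodes with at least 500 genes and 1000 UMIs, including those with 30% or more mitochondrial UMIs that the other results leave out, Fos was 163, 136, 45.3 and 38.3 in barcodes under 5% and 343, 384, 434 and 341 in those at 30% or more. Fos, Fosb, Jun, Junb, Klf6 and Zfp36 were higher at 30% or more than under 5% in 4 of 4 libraries, and Jund was lower in 4 of 4. The bins of all barcodes differ in class makeup. Enterocytes were 106, 154, 257 and 194 of 2629, 4782, 3858 and 4230 barcodes under 5%. At 20 to 30% they were 185, 202, 980 and 859 of 401, 834, 1074 and 963. Barcodes at 30% or more were not given a class. The part of class makeup in these differences was not tested. Within crypt cells no member was higher at 10 to 20% than under 5% in all 4 libraries, and 6 were lower in all 4. There Fos was 54.6, 46.6, 15.6 and 20.3 under 5% and 12.9, 21.5, 5.56 and 7.79 at 10 to 20%, the latter from 9, 25, 3 and 3 UMIs.

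Within enterocytes Fos was 465, 339.6, 335 and 258 per 1000000 nuclear UMIs under 5% and 722, 598, 408 and 302 at 20 to 30%, higher in 4 of 4 libraries. At 10 to 20%, the bin read in crypt cells, it was 493, 399.9, 293 and 265, higher than under 5% in 3 of 4 libraries, and over the members 1 was higher and 5 were lower there in all 4 libraries. At 20 to 30% Fosb was also higher in 4 of 4, while Klf6, at 389, 337, 334 and 292 and 263, 277, 328 and 252, and Jund were lower in 4 of 4. In goblet cells no member was higher at 20 to 30% in all 4 libraries. These values are descriptions with no test, and the highest bins of crypt and goblet cells hold few UMIs of each gene. The 10 to 20% bin of crypt cells is sparse as well. Shares of all genes that were higher or lower in all 4 libraries are not given, so the counts of members have no background to be read against.

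**Figure D3:**
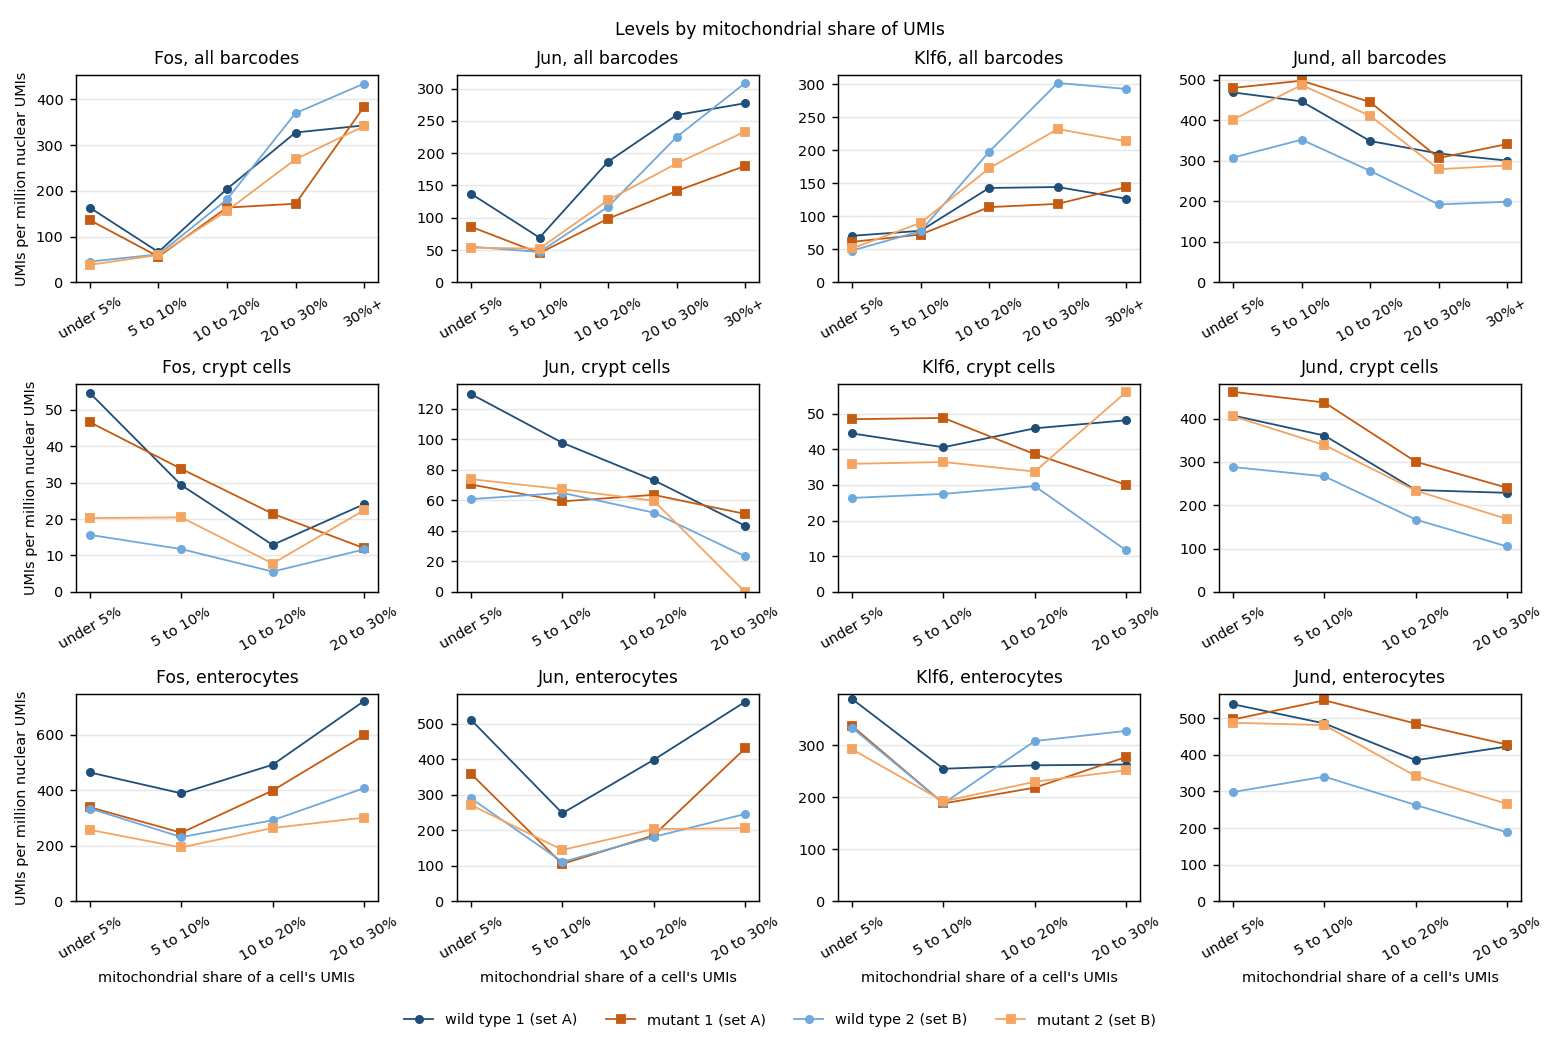
Levels of Fos, Jun, Klf6 and Jund per 1000000 nuclear-encoded UMIs, by the mitochondrial share of a cell's UMIs, in all barcodes (top), crypt cells (middle) and enterocytes (bottom). Each line is 1 library, and linear axes start at 0. Over all barcodes Fos is higher at 30% or more than under 5% in every library, after a dip at 5 to 10% in set A. The bins of all barcodes differ in class makeup. In crypt cells it is lower at 10 to 20%, from 9, 25, 3 and 3 UMIs, than under 5% in all 4 libraries.

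Between the sets, the members were mostly lower in set B. In CPM, all 10 members were higher in both set A libraries than in both set B libraries in goblet cells, as were 33.0% of 12179 genes with a mean of at least 1 CPM there. In all epithelial cells 9 of 10 members were, and 50.3% of 12715 genes. In crypt cells it was 7 of 10 members and 39.8% of genes, and in enterocytes 7 of 10 and 36.7%. Over all epithelial cells Fosb was 50.4, 30.8, 10.6 and 7.86 CPM, Fos 139.7, 99.3, 61.8 and 52.2 CPM and Ier2 157, 161, 63.8 and 73.8 CPM. Klf6 was the member whose sets overlapped, at 72.1, 65.2, 65.9 and 66.7 CPM. In the fit of set B against set A over all epithelial cells 5 of 10 members fell and 0 rose, against 7.06% of 16700 genes called lower and 8.01% called higher.

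The members that fell were Fosb at -1.98 ± 0.20 (SE, adjusted p = 0.00106), Egr1 at -1.07 ± 0.17 (SE, adjusted p = 0.00651), Ier2 at -1.04 ± 0.15 (SE, adjusted p = 0.00385), Fos at -0.91 ± 0.15 (SE, adjusted p = 0.00745) and Junb at -0.65 ± 0.14 (SE, adjusted p = 0.0191), as log2 differences. The Fos call was lost without wild type 2, at -0.94 (edgeR adjusted p = 0.0603), or mutant 2, at -0.85 (edgeR adjusted p = 0.0598), and the Junb call without wild type 2, at -0.46 (edgeR adjusted p = 0.142). Without wild type 2 fewer members were called, as were fewer of all genes. Jun was called lower without mutant 1, at -0.85, and Zfp36 without wild type 1, at -0.51. Without the TMM factor 7 of 10 fell, against 15.7% called lower, and the median of all genes moved to -0.18.

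Within classes 7 of 10 members fell in goblet cells, against 2.99% of genes called lower, led by Fosb at -1.75 ± 0.16 (SE, adjusted p = 4.26e-04) and Fos at -1.61 ± 0.14 (SE, adjusted p = 2.79e-04). In crypt cells 6 of 10 fell, against 8.83%, and in enterocytes 2 of 10, Fosb and Ier2, against 1.47%. The goblet marker sum in enterocytes given above was also lower in set B. Whether the set difference itself differs between classes was not tested. The sets also differ in cell makeup: enterocyte markers, 20 genes, summed to 4517, 3888, 9304 and 10639 CPM over all epithelial cells, and 12 goblet markers to 29713, 19771, 21737 and 16947 CPM. Goblet cells held 7544, 5187, 1399 and 1063 of the 12029, 9883, 5505 and 4790 Fos UMIs. The part of cell makeup in the set difference was not tested. Over all epithelial cells 8.01% of all genes rose and 7.06% fell in set B. Of 40 other immediate early and dissociation genes 2 rose and 11 fell in set B, with Dusp1 at -1.46 (adjusted p = 9.55e-04). Of 11 heat shock genes 1 rose and 0 fell. Sex as titled, Cell Ranger version and handling cannot be told apart between the sets.

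Genotype, the contrast the study was built on, called no member in the edgeR fit with no set term. In that fit 0 genes were called in each of 7 groups of cells, with 78 to 190 genes at an unadjusted p under 0.05 by group, and DESeq2 called 9 genes in all epithelial cells, 1 in enteroendocrine cells and 0 in the other groups, none of them a member. The background was thus 0% in all epithelial cells. Libraries of a set deviated together from the genotype means (r = 0.636 over 16700 genes), and with the set as a replicate block 27 genes, 0.162%, were called in all epithelial cells, with 1015 genes at an unadjusted p under 0.05 against 114 without it. The block called 0 members there and 2 members in tuft cells, Fos and Egr1. The standard errors that follow come from the fit without the block. Over all epithelial cells the log2 differences of mutant from wild type were -0.55 ± 0.83 (SE) for Fosb, -0.39 ± 0.31 for Jun, -0.35 ± 0.49 for Egr1 and -0.30 ± 0.42 for Fos. Those of Jund and Zfp36 were 0.34 ± 0.21 and 0.29 ± 0.22. Ier2, Junb, Klf6 and Ier3 were at 0.20, 0.06, 0.05 and -0.06.

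Mutant and wild type were also set side by side within each set, as log2 ratios on the TMM scale. Over all epithelial cells the ratio for Zfp36 was 0.30 (A) and 0.28 (B). For Jun it was -0.75 (A) and 0.11 (B). Klf6 was higher in the mutant in crypt cells, 0.22 (A) and 0.50 (B), and lower in enterocytes, -0.40 (A) and -0.24 (B), and goblet cells, -0.37 (A) and -0.32 (B). Within the crypt the stem-like cells had 34.4, 27.7, 14.2 and 28.4 CPM of Klf6, lower in the mutant in set A and higher in set B, and the cycling-like cells 45.5, 53.5, 34.3 and 39.6 CPM, higher in the mutant in both. Most crypt cells of mutant 1 lay in clusters of its own, as given above. The difference between classes was not tested.

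**Figure D4:**
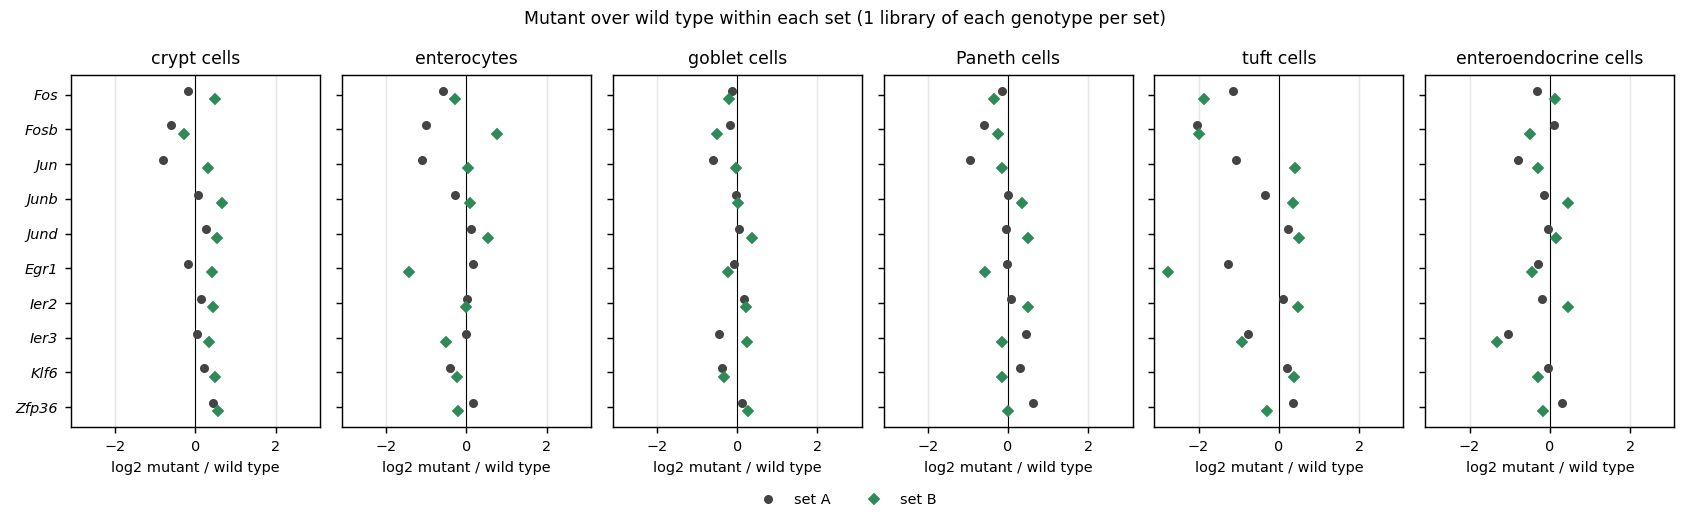
Log2 ratios of mutant to wild type for each member and class, on the TMM scale, with circles for set A and diamonds for set B (1 library of each genotype per set). Many ratios differ in sign between the sets, while Fos, Fosb and Egr1 are below 0 in both sets in tuft cells.

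Tuft cells gave the widest ratios. Fos was 131, 55.4, 34.1 and 9.20 CPM, from 62, 38, 32 and 10 UMIs, and Egr1 was 86.9, 33.6, 19.2 and 2.76 CPM, from 41, 23, 18 and 3 UMIs. Within each set the mutant was lower for both genes, yet mutant 1 was above wild type 2, so the genotypes overlapped. Without a set term Fos was -1.30 ± 0.85 (SE, adjusted p = 1) and Egr1 -1.51 ± 1.02 (SE, adjusted p = 1). With the set as a replicate block Fos fell, at -1.39 ± 0.33 (SE, adjusted p = 0.013) and so did Egr1, at -1.66 ± 0.43 (SE, adjusted p = 0.0314), 2 of the 8 members tested, with 0.244% of 8591 genes called lower. That fit leaves 1 residual degree of freedom. Tuft cells numbered 35, 79, 98 and 117, and their 13 tuft markers summed to 8971, 5818, 15423 and 17253 CPM, their 12 cycling markers to 559, 2296, 951 and 611 CPM and their 20 enterocyte markers to 894, 951, 3869.5 and 2826 CPM. The part of those differences between libraries in the Fos and Egr1 values was not tested.

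In 2 further classes a member passed the threshold when 1 library was left out, with no set term, which leaves 1 library in a genotype. In goblet cells Fosb was -1.53 without mutant 1. In enteroendocrine cells Fosb was 1.20 and Ier2 1.31 without wild type 1, and Jun was -1.14 without wild type 2. Other genes passed in these fits as well, whereas the fit of all libraries called none in either class. Such a fit compares a lone library of one set with libraries of both sets.

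The members did not all follow one pattern. Over the 28 sums of 7 classes in 4 libraries, Pearson's r of log2(CPM + 1) was 0.91 between Fos and Fosb, 0.91 between Junb and Zfp36 and 0.89 between Klf6 and Zfp36. It was 0.81 between Jund and Ier2, but 0.07 between Ier2 and Klf6 and 0.30 between Egr1 and Klf6. Sums of 1 library share its depth and handling, so these are descriptions. Of 8850 genes with a mean of at least 10 CPM, those most like the members' mean profile included Tmed4 (r = 0.94), H2-T23 (r = 0.92), Tmem181a (r = 0.92), Dusp1 (r = 0.92), Litaf (r = 0.92), Sdcbp (r = 0.92), Pcsk7 (r = 0.92), Plxnb2 (r = 0.90) and Pxn (r = 0.90). Dusp1, a phosphatase that inactivates MAP kinases and is itself an early gene, is among the genes left out of the clustering.

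Between single cells thinned to 5000 UMIs, Fos and Fosb had r of 0.45 to 0.56 over the 4 libraries in goblet cells. Fos and Jun had r of 0.41 to 0.59 in enterocytes and 0.37 to 0.42 in goblet cells. In crypt cells Fos and Jun had 0.03 to 0.25, where most cells hold no UMI of Fos, and Fos and Egr1 had 0.21 to 0.39. Ier3 stayed between -0.11 and 0.11 with every other member in all 3 classes. Cells of 1 library are not replicates, and r between sparse counts is held down by counting error.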

How the data were processed

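The files hold UMI counts of each gene in each barcode, used raw as deposited. Per the file headers, Cell Ranger 7.0.0 made those of set A and Cell Ranger 7.1.0 those of set B. The submitters' processing notes name build mm10. How reads were aligned, and whether introns were counted, is not given in these sources. Libraries held 5974, 13805, 12398 and 12399 barcodes and 99772712, 127796409, 112430029 and 119029754 UMIs, and pairs of libraries shared at most 0.484% of barcodes of the smaller. The members, gene lists, markers, tests and alternatives were chosen with earlier results of these data known.

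Barcodes with at least 500 genes, 1000 UMIs and under 30% mitochondrial UMIs were kept. Scrublet's automatic threshold called 0.0502%, 14.4%, 0.00807% and 0% as doublets, so its score was cut to remove 0.8% of barcodes per 1000. This left 4287, 10065, 7309 and 7609 cells. Clustering used scanpy 1.11.5 with 2000 variable genes, 50 principal components, 15 neighbours and Leiden resolution 1.0 (igraph 0.11.9). Clusters were named from at least 3 markers among 50 leading genes. A cluster stayed unnamed where another class had as many markers. It also stayed unnamed where its cells were shallow and its 10 genes of highest fold held no marker of the class.

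UMIs were summed per class and library and tested with edgeR 4.0.16 (R 4.3.3), with filterByExpr, TMM and Benjamini-Hochberg adjustment. The genotype fit has no set term. The labels give no replicate numbers. Deviations from the genotype means correlated at r = 0.636 within sets over 16700 genes. With 2 libraries a group, pairs across the sets take the same size with a negative sign. Alternatives were DESeq2 1.42.0, the set as a replicate block, no filter, mitochondrial limits, no doublet removal, resolution 0.5, a villus score without Apoa4, and each library left out. Scripts were tested on simulated data. All 10 members were named in every comparison, with up to 4 genes a list of highest mean CPM, and the 10 genes most like the members' mean profile. Some genes that this rule names are not reported here.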

Additional observations from a re-analysis of the deposited data

Results flagged for a closer look

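On the TMM scale, Klf6 and Ier3 pointed in opposite directions by genotype in different classes, in both sets. The differences were not tested, and each set holds 1 library of each genotype. The share of all genes that do the same was not counted, so these members have no background to be read against. Klf6 was higher in mutant than in wild type in crypt cells at 0.22 (A) and 0.50 (B) on the log2 scale for sets A and B, and in tuft cells at 0.20 (A) and 0.38 (B). It was lower in enterocytes at -0.40 (A) and -0.24 (B), goblet cells at -0.37 (A) and -0.32 (B) and enteroendocrine cells at -0.04 (A) and -0.30 (B). In CPM, Klf6 in stem-like cells was 34.4, 27.7, 14.2 and 28.4 (set A, then set B, each with wild type before mutant), lower in the mutant in set A, and in cycling-like cells 45.5, 53.5, 34.3 and 39.6. Most crypt cells of mutant 1 lay in clusters that held few cells of the other libraries. The mean log2 ratio of crypt cells exceeded that of enterocytes by 0.68, that of goblet cells by 0.71 and that of enteroendocrine cells by 0.53. The mean ratio of tuft cells exceeded these by 0.61, 0.64 and 0.46. Ier3 was at 0.04 (A) and 0.34 (B) in crypt cells, -0.77 (A) and -0.92 (B) in tuft cells and -1.04 (A) and -1.32 (B) in enteroendocrine cells. In CPM, Ier3 in crypt cells was 4.53 in wild type 1 and 4.34 in mutant 1, lower in the mutant in set A. In set B it was 3.59 in wild type 2 and 4.36 in mutant 2. For Ier3 the mean ratio of crypt cells exceeded that of tuft cells by 1.03 and that of enteroendocrine cells by 1.37. Ier3 rested on 5, 4, 5 and 3 UMIs in tuft cells and 20, 8, 8 and 2 UMIs in enteroendocrine cells.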

How the results depend on the processing

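Of 116 recomputed counts of genes called, 86 stayed within 1.5 times of the reported count, as did 105 of 116 counts of members called. Of 678 recomputed member differences 606 kept direction and side of the threshold, 14 lost the call, 20 gained it and 38 changed sign. The cause was not tested. With the set as a replicate block the genotype fit called 27 genes in all epithelial cells, 18 in crypt cells, 84 in enterocytes, 8 in goblet cells, 19 in Paneth cells and 50 in tuft cells, 2 of them members, and the block changed no other member call. DESeq2 called 9 genes in all epithelial cells and 1 in enteroendocrine cells. With no filter on low counts genotype called 18 genes in crypt cells, 15 in enterocytes, 16 in goblet cells, 12 in Paneth cells, 3 in tuft cells and 23 in enteroendocrine cells, and with no TMM factor 1 in Paneth cells. Leaving out 1 library gave 0 to 1 genes in crypt cells, 0 to 17 in enterocytes, 0 to 19 in goblet cells, 0 to 11 in Paneth cells, 0 to 36 in tuft cells and 0 to 66 in enteroendocrine cells, with 0 to 1 members in goblet and 0 to 2 in enteroendocrine cells. A lone library left in a genotype is assumed to vary like the other. For set B against set A it gave 583 to 2697 genes and 3 to 6 members, with 583 without wild type 2 and 1006 without mutant 2. In tuft against crypt cells 2 members were called, but 4 by DESeq2, 4 with no filter, 7 at resolution 0.5, 5 with no TMM factor and 1 to 3 with 1 library left out. Of all 14417 genes tested there, 2742 were called higher in the reported fit, 3541 by DESeq2 and 3655 with no TMM factor. With no TMM factor 12751 genes were called in Paneth against crypt cells.

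Signs changed with no TMM factor for Junb (-0.0570) and Klf6 (-0.0652) by genotype in all epithelial cells, Klf6 (-0.0507) by set, Jund (-0.0434) in enterocytes, and Jun (-1.20), Jund (-1.04), Ier2 (-1.24), Ier3 (-1.39), Klf6 (-0.89) and Zfp36 (-0.43) in Paneth cells. In tuft cells Jun was -0.00835 with no filter, and Ier2 was 0.0504 by DESeq2, 0.0929 at resolution 0.5 and 0.16 with no TMM factor. In enteroendocrine cells with no filter Jund was -0.04998 and Ier3 -0.0643. With 1 library left out, genotype differences in all epithelial cells ranged from -0.72 to 0.32 for Fos, -1.71 to 0.87 for Fosb, -0.76 to 0.14 for Jun, -0.30 to 0.58 for Junb, -1.05 to 0.23 for Egr1, -0.35 to 0.90 for Ier2, -0.18 to 0.0835 for Ier3 and -0.0501 to 0.16 for Klf6. Jund by set ranged from -0.50 to 0.0704. Against crypt cells, tuft cells ranged from -0.18 to 0.30 for Jun, -0.0863 to 0.50 for Ier3 and -0.0147 to 0.53 for Klf6, and enteroendocrine cells from -0.0399 to 0.15 for Jund, -0.10 to 0.29 for Ier2 and -0.41 to 0.27 for Ier3. Ier3 along the villus ranged from -0.48 to 0.19. Ier3 had 490, 459, 381 and 383 UMIs in all epithelial cells and 5, 4, 5 and 3 in tuft cells.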
